A study of Drosophila melanogaster with 3 samples.

Results

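The genes homothorax (hth), extradenticle (exd), teashirt (tsh) and tiptop (tio) of Drosophila melanogaster are grouped as hinge and proximal larval disc genes. They are described here by the anti-HA CUT&Tag peaks that overlap each gene's annotated span on the dm6 assembly or its flanks of 10 kb. They are 4 of the 13946 protein-coding genes of the RefSeq table. Their windows cover 231 kb together and held 38, 38 and 37 peaks in replicates 1, 2 and 3, out of 9268, 9005 and 9225 peaks in the whole lists. Merging overlapping peaks of the libraries gave 47 regions in these windows, of which 30 had a peak in each of the 3 libraries and are called consensus regions. The whole series has 5768 consensus regions on the main chromosomes. The members were named by symbol and not by any measured value.

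CUT&Tag uses an antibody to tether a transposase, which then cuts and tags DNA near the protein the antibody recognises. The only group has 3 libraries, all from wing discs of larvae of the third instar with the genotype nub>GFP;UAS-BunA-HA. For all 3 the growth temperature was 25 °C and the dissociation temperature was 37 °C. The nub driver in these larvae expresses GFP and an HA-tagged BunA, the long isoform of bunched. The nubbin gene is active in the pouch and the adjoining inner hinge and not in the whole disc, whereas whole discs were dissociated. The replicates are numbered in accession order, and nothing in the labels says that they came from separate crosses, so their spread can be technical. Discs lacking the transgene were not analysed here, so signal from the antibody and signal from open chromatin cannot be told apart. With 1 group there is no comparison between conditions and no test was made. Values of the 4 genes are set beside those of all genes or all regions as a description.

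Hth and Exd are homeodomain proteins of the TALE class. Hth binds Exd and carries it into the nucleus, where the pair acts as a cofactor of Hox proteins and as a regulator of its own. Tsh and Tio are zinc-finger repressors encoded by paralogous genes 182 kb apart on 2L. In the wing disc hth and tsh are active in the hinge and notum and are shut off in the pouch when wing fate is set, whereas exd is transcribed throughout and its product is nuclear only where Hth is present. In the eye disc Hth and Tsh act with the growth coactivator Yorkie to keep progenitor cells dividing.

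All 4 genes had at least 1 consensus region in the gene or its flanks, where 55.2% of protein-coding genes did. When protein-coding genes are ordered by length and cut into 3 equal groups, all 4 belong to the longest group, in which 68.3% had a region. The number of regions differed widely among the members. The hth window of 152 kb held 22, the tsh window of 28.4 kb held 5, the tio window of 26.5 kb held 2 and the exd window, the shortest, held 1. Per 100 kb of window this came to 17.6 regions for tsh, 14.5 for hth, 7.54 for tio and 4.16 for exd, against a median of 3.86 over all protein-coding genes. The density at tsh was above that of 94.5% of protein-coding genes and the density at hth above 92.2%, while tio stood above 72.5% and exd above 52.5%. The exd window was therefore close to the middle of all genes. At tsh 1 of the 5 regions only touches the edge of the window. With the centre required inside the window tsh had 4 regions and hth still 22, so the order of these 2 genes in density rests on that region.

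**Figure D1:**
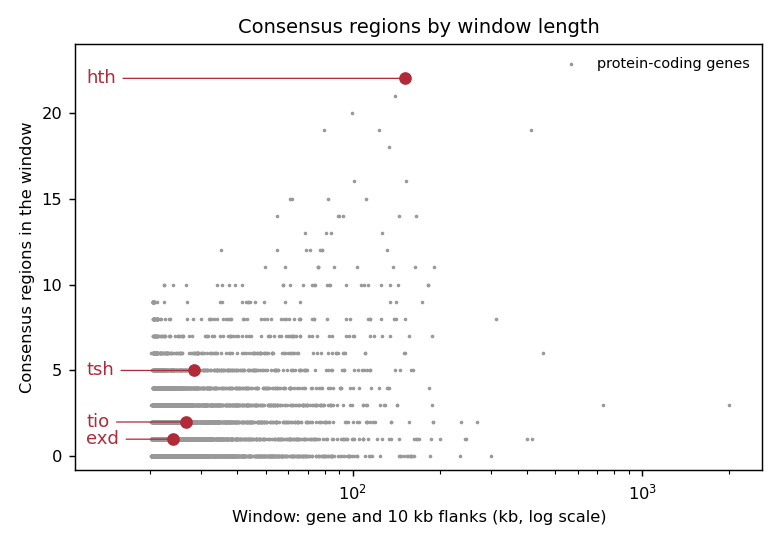
Number of consensus regions in the gene and its 10 kb flanks (y axis) against the length of that window (x axis, kb, log scale) for each protein-coding gene (grey), with the 4 genes in red. hth stands at the top with 22 regions, while tsh (5), tio (2) and exd (1) have windows of a length like that of many genes. Per 100 kb of window, tsh stood above 94.5% of protein-coding genes, with a region at the edge of its window counted.

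Of the 47 merged regions at the 4 genes, 30 (63.8%) recurred in all libraries, where 53.1% of all merged regions did. Of the peaks in these windows, 78.9%, 81.6% and 83.8% lay in a consensus region in replicates 1, 2 and 3, and 71.5%, 72.5% and 71.2% of all peaks on the main chromosomes did. The other 17 regions were weaker in the median. They had peaks in 2 libraries in 4 cases and in 1 library in 13 cases. Their median fold was 4.76, against 5.18 over all regions missing from at least 1 library. Their highest fold, 6.38, was above the lowest mean fold of a consensus region at these genes, 5.17. Fold is the authors' value for a peak, the enrichment at its summit over the background that the peak caller estimated, on a linear scale. The 30 consensus regions had mean folds of 5.17 to 23.7 with a median of 8.55, against a median of 8.20 over all consensus regions, and 15 of the 30 lay above that value.

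The homothorax gene carried a long array of moderate regions. Replicates 1, 2 and 3 had 30, 28 and 28 peaks in its window, and of 36 merged regions 22 were shared by all, 4 by 2 libraries and 10 were seen in 1. No other protein-coding gene had as many consensus regions. Next in this order came jing with 21, sbb with 20, and Antp, kirre and psq with 19 each, all genes of 59.4 kb or more. The lead was narrow and did not hold in each setting: with peaks of at least 2 libraries kirre and jing had 27 regions and hth 26, and without replicate 1 jing had 24 and hth 23. Without replicate 2 both had 24. With flanks of 20 kb jing had 24 against 22 for hth, and with only the peaks above each library's median fold CG1677 and jing had 11 against 10. A non-coding gene, lncRNA:CR32773 on X, had 23 in its window. Of the 43 protein-coding genes longer than hth, kirre had the most regions with 19, and the 87 genes of at least 100 kb had a median of 3.

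Of the 22 regions, 21 lay inside hth and 1 lay outside its low-coordinate end on 3R, where the gene spans 10507561 to 10639568. The table used here gives no strand and no exons, so ends are named by coordinate and exons and introns are not told apart. Dividing the gene into 3 equal parts gave 7 regions in each. Their median folds were 9.98 in the part with the lowest coordinates, 6.09 in the middle part and 7.17 in the part with the highest coordinates. Centres of neighbouring regions were a median of 5.34 kb apart. In 4 of 21 cases they were under 1 kb apart and in another 4 over 10 kb. The longest stretch with no consensus region ran for 22.6 kb, between centres 43.7 kb and 66.2 kb from the low-coordinate end. It held a peak of replicate 2 alone, with a fold of 5.18.

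**Figure D2:**
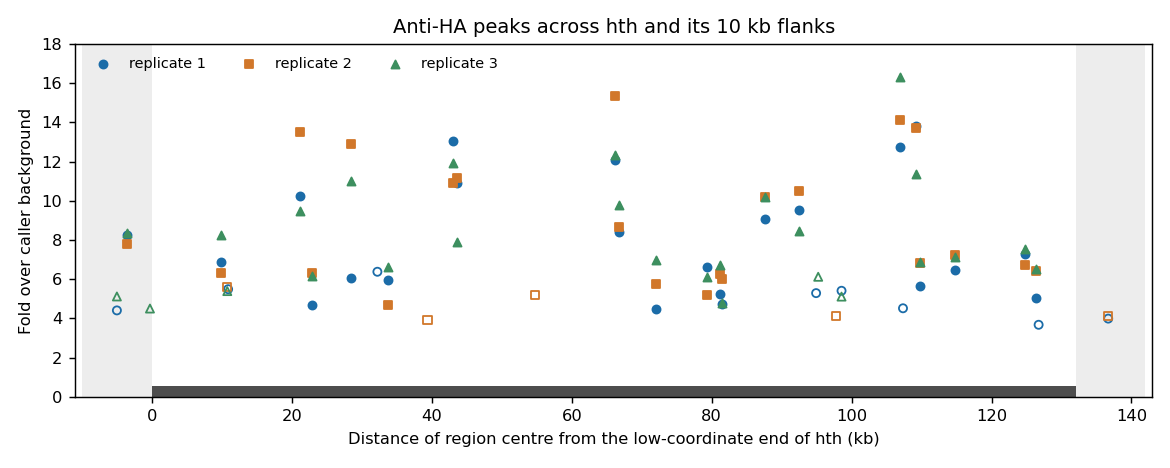
Fold of each peak (y axis, linear ratio over the caller's background) by the distance of its region's centre from the low-coordinate end of hth (x axis, kb). The bar at the foot is the gene, grey bands are the 10 kb flanks, filled symbols are regions with a peak in all 3 libraries and open symbols the others. The regions run along the whole gene, with the highest mean fold, 14.4, at 25.0 kb from the high-coordinate end, and no filled symbol lies within 1 kb of either end.

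The strongest regions of hth stood in different parts of the gene. The first, at 10614240 to 10614834 on 3R and 25.0 kb inside the high-coordinate end, had folds of 12.7, 14.1 and 16.3 in replicates 1, 2 and 3, a mean of 14.4 ± 1.79 (SD, n = 3). A region at 10573710 to 10573917, near the middle of the gene, had 12.1, 15.3 and 12.3 (13.2 ± 1.82). A region at 10616704 to 10616893 had 13.8, 13.7 and 11.4 (13.0 ± 1.38). The ranges of these 3 overlapped, and each was the strongest hth region of a different library, so their order is not settled by these data.

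The next regions were at 10550380 to 10550639, with folds of 13.0, 10.9 and 11.9 (SD 1.06, n = 3), and at 10528595 to 10529085, with 10.2, 13.5 and 9.46 (11.1 ± 2.14). Of the 5 strongest hth regions in each library, 3 were common to all libraries. Altogether 6 of the 22 exceeded a mean fold of 10, and 9 were below 7. The median over the 22 was 7.65, against 8.20 over all consensus regions, and 10 of 22 lay above 8.20. The hth array was thus high in number and near the middle of all regions in fold. Across its 22 regions, which share a library and are not independent, Spearman's rho between libraries was 0.804, 0.824 and 0.874, and over all consensus regions it was 0.805, 0.816 and 0.833.

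Libraries differed most at a region at 10535830 to 10535993, where replicate 1 had a fold of 6.04 against 12.9 in replicate 2. The median coefficient of variation of fold was 12.4% over the hth regions and 13.1% over all consensus regions. Summits, the positions of highest signal, spanned 120 bp at the region with the highest mean fold and 5 bp at 10573710 to 10573917, the next. At 10550380 to 10550639 all 3 libraries had the same summit, and at 10528595 to 10529085 the summits spanned 1 bp. The widest spread was 342 bp, at 10633641 to 10634155, and the median over the 22 was 49.5 bp, against 34 bp over all consensus regions.

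Neither end of hth had a consensus region. The nearest inside the gene were centred 9.88 kb from the low-coordinate end and 5.71 kb from the high-coordinate end. A peak of replicate 3 alone, with a fold of 4.50, lay 0.3 kb outside the low-coordinate end at 10507222 to 10507345. The consensus region outside that end lay 3.64 kb away, at 10503830 to 10504014, and had 8.24, 7.82 and 8.36 (8.14 ± 0.284; SD, n = 3), the smallest SD of the 22. Beyond the high-coordinate end, within the antisense gene asRNA:CR44018 that overlaps it, replicates 1 and 2 had peaks of 3.99 and 4.14 and replicate 3 had none. The microRNA gene mir-4944 inside hth had no consensus region at it. Among regions missing from at least 1 library, the 3 highest folds were all inside hth: 6.38 in replicate 1 at 10539705 to 10539861, 6.12 in replicate 3 at 10602716 to 10602857, and 5.59 and 5.39 in replicates 2 and 3 at 10518168 to 10518372.

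tiptop had few regions and the strongest of the 4 genes. At 22018883 to 22019288 on 2L, a region that spans the low-coordinate end of tio at 22019208, the folds were 21.5, 24.8 and 24.7 in replicates 1, 2 and 3, with a mean of 23.7 ± 1.89 (SD, n = 3). The lowest of these was above the highest value of any region at tsh (17.4), hth (16.3) or exd (10.4). The region's percentile within its library was 98.8, 99.1 and 99.2, and by mean fold it ranked 34 of 5768 consensus regions. The −log10 p-values in the authors' lists were 78.0, 97.8 and 97.4. Among the 2868 protein-coding genes with a region within 1 kb of an end, tio ranked 21 by the fold of its strongest such region. The non-coding gene lncRNA:CR33987 has the same low-coordinate end as tio, so the region cannot be assigned to either gene alone.

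The other tio region lay near the opposite end, at 22024307 to 22024828, and was centred 1.22 kb inside the gene. Its folds were 9.75, 11.2 and 12.1 (SD 1.17, n = 3), all below those of the first region. It was broad, 522 bp, and its summits spanned 317 bp, against 44 bp in the region at the low-coordinate end. No peak of any library lay elsewhere in the tio window, which made tio the only one of the 4 genes at which each library had the same number of peaks, 2, all of them shared.

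teashirt had a strong region at 1 end and weaker ones beyond the other. The gene spans 21828593 to 21837011 on 2L, 182 kb from tio. A region across its low-coordinate end, at 21828380 to 21828654, had folds of 17.4, 14.1 and 16.2 in replicates 1, 2 and 3 (15.9 ± 1.66; SD, n = 3) and a mean percentile of 94.3. By its strongest region at an end tsh ranked 263 of 2868. Immediately inside the gene, at 21828738 to 21829048, a second region had 3.88, 8.10 and 5.90 (5.96 ± 2.11), the widest spread for its mean among the tsh regions. Replicate 2 had a further peak of 4.79, centred 336 bp outside the gene, which the other libraries lacked. Near this end replicate 2 thus had the lowest fold at the strongest site and the highest at the site beside it.

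Beyond the high-coordinate end of tsh there were 3 more regions. Those centred 2.68 and 3.52 kb away, at 21839597 to 21839839 and 21840408 to 21840715, had 8.33, 6.39 and 7.45 (7.39 ± 0.972; SD, n = 3) and 6.48, 9.57 and 6.90 (7.65 ± 1.68). The ranges of this pair overlapped. The last, at 21846871 to 21847420, had 7.76, 10.5 and 10.3 (9.54 ± 1.55) and touched the edge of the flank with its centre 10.1 kb from the gene. Just outside the flank, at 21847525 to 21847800, a region centred 10.7 kb from tsh had 9.95, 9.15 and 6.91 (8.67 ± 1.58). At the other window edges the first consensus region outside lay between 21.5 and 87.4 kb from the gene.

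**Figure D3:**
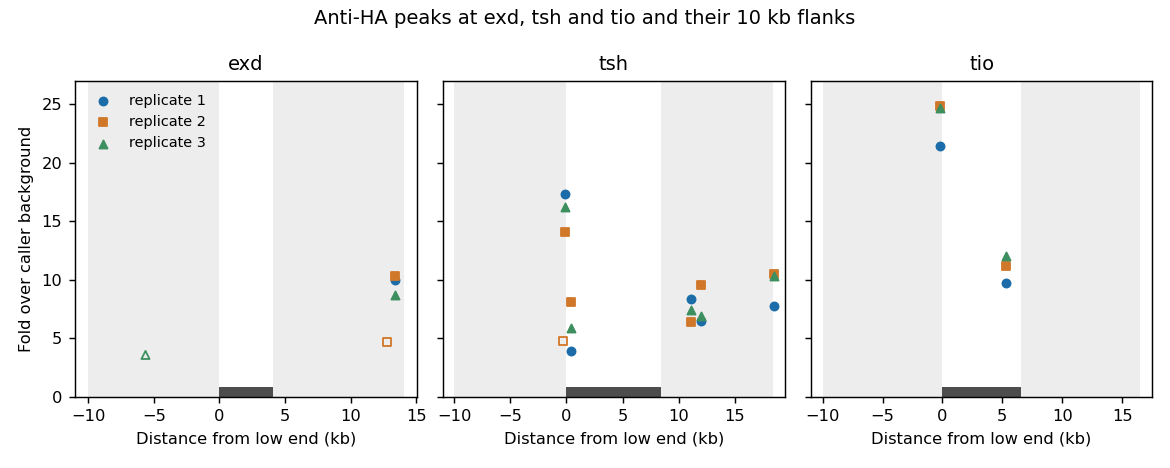
Fold of each peak (y axis, linear ratio over the caller's background) by the distance of its region's centre from the low-coordinate end of exd, tsh and tio (x axes, kb). The bar at the foot is the gene, grey bands are the 10 kb flanks, and open symbols are regions missing from at least 1 library. The highest symbols of tsh (14.1 to 17.4) and tio (21.5 to 24.8) sit at the low-coordinate end of the gene, and none lies inside exd.

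extradenticle had no consensus region in the gene or within 1 kb of its ends, in a dense stretch of X with 8 other genes inside the window. Its only consensus region, at 16005744 to 16005862, was centred 9.31 kb beyond the high-coordinate end of the gene, which spans 15992468 to 15996509. This region spans the end of vap, the gene of a Ras GTPase-activating protein, at 16005812, and lies within 1 kb of an end of CG12698 too. It therefore counts for exd only by the width of the flank. Its folds were 9.97, 10.4 and 8.69 (9.67 ± 0.871; SD, n = 3). Replicate 2 also had a peak of 4.66 at 16005183 to 16005332 and replicate 3 a peak of 3.58 at 15986783 to 15986873. On the low-coordinate side the nearest consensus region lay 82.3 kb away.

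Consensus regions lay within 1 kb of a gene end at 2 of the 4 genes, tsh and tio, and 20.6% of protein-coding genes had one there. Taking the strongest region of each gene, tio (21.5 to 24.8) did not overlap the others, tsh (14.1 to 17.4) and hth (12.7 to 16.3) overlapped, and exd (8.69 to 10.4) lay below all 3. The highest of 22 regions is more likely to be high than the highest of 1, so these are descriptions of the genes and no ranking of binding.

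**Figure D4:**
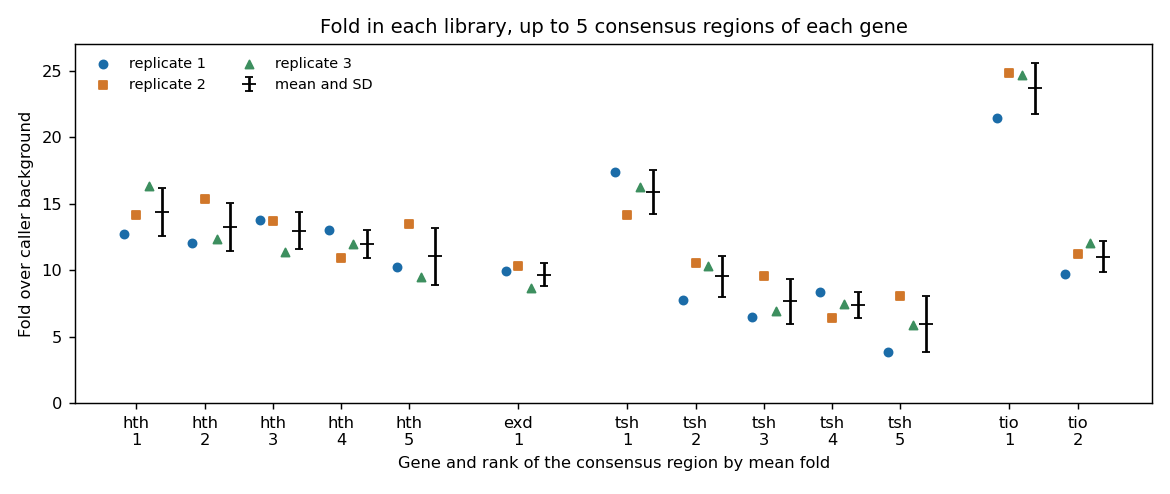
Fold in each library (symbols) with the mean and SD over 3 libraries (black) for up to 5 consensus regions of each gene, ordered within a gene by mean fold (x axis); the y axis is the linear ratio over the caller's background and starts at 0. The strongest tio region (23.7 ± 1.89) stands clear of the others, while the strongest regions of hth and tsh overlap.

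**Figure D5:**
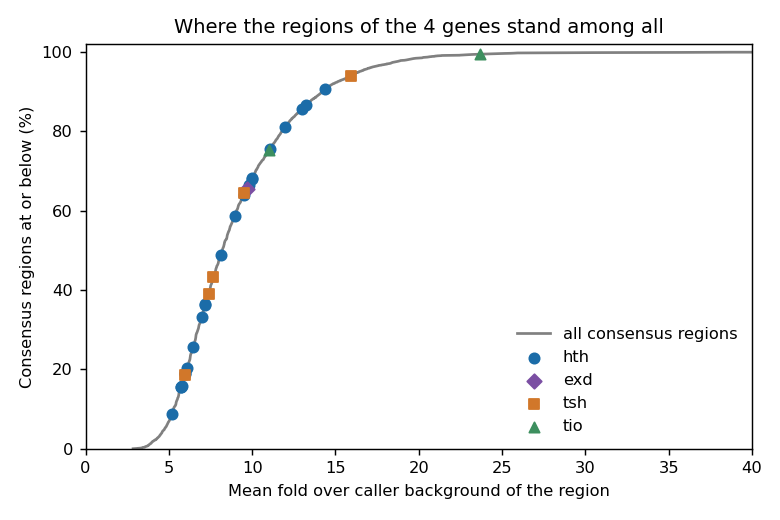
Mean fold of each consensus region of the 4 genes (symbols) on the cumulative distribution of all 5768 consensus regions (grey line; y axis, percent of regions at or below that fold). The x axis ends at a fold of 40, which 4 regions exceed. The hth regions spread from 5.17 to 14.4, and the strongest tio region is at 23.7.

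Related genes were set beside the 4 in lists chosen with earlier results of these data known, and no test was made of them. Of 7 TALE homeodomain genes 5 had a consensus region in the gene or its 10 kb flanks, and 55.2% of all protein-coding genes and 68.3% of the longest group did. After hth the most were 4 at caup and 3 each at ara and mirr, the Iroquois genes that specify the notum. The paralogues achi and vis had none, though the libraries had 2, 2 and 1 peaks at each of these neighbours. Of 14 hinge and proximal disc genes, the 4 members included, 14 had a region, against the same 55.2% and 68.3%, with a median of 3.5 regions and a median highest fold of 14.5. Neighbouring genes can share a region, and Doc2 and Doc3 had the same highest fold of 14.7 (SD 2.12). The 14 genes are therefore not separate observations. Regions were most numerous at hth (22) and at zfh2 and Sox15 (7 each), which encode transcription factors of the hinge. Of these 14 genes 12 had a region within 1 kb of an end, where 20.6% of protein-coding genes had one, and the exceptions were hth and exd. In the lists below, so did 7 of 9 pouch and distal genes, 10 of 13 partner genes and 6 of 6 epithelium markers. Among the TALE genes 3 of 7 did, and each list of other cells had 0 to 2. The high share is therefore not particular to the hinge list. The share at ends was not computed for the longest group.

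Of 9 genes of the wing pouch and the distal disc, 9 had a region, where 55.2% of protein-coding genes and 68.3% of the longest group had one, with a median of 5 regions and a median highest fold of 15.8, led in number by dve (8), nub (7) and rn (6). No difference between the proximal and distal lists was tested. Of 13 genes that encode protein partners of Hth, Exd or Tsh, 13 had a region, against the same 55.2% and 68.3%, among them the Hox gene Antp (19), the corepressor gene CtBP (4) and eya (4), a retinal determination gene.

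Defining genes of the wing disc epithelium had regions at 6 of 6 (nub, vg, ap, wg, rn and pnr). Of all protein-coding genes 55.2% had one, and of the longest group, to which these 6 belong, 68.3% did. Markers of other cells that a whole disc can hold had them at 3 of 4 for adult muscle precursors, with 10 regions at twi and none at Him, and at 2 of 3 for trachea, with none at btl. They had them at 1 of 3 for haemocytes, 2 of 3 for neurons and 1 of 3 for fat body, with none at Hml, NimC1, nSyb, Lsp1beta and Fbp1. With 3 or 4 genes in each list of other cells, these counts were not tested against those shares, and the part of other cell types in the results for the 4 genes was not tested.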

How the data were processed

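Anti-HA CUT&Tag was deposited as 3 peak lists, 1 per library, on dm6. The submitters' processing notes name MACS2, deepTools, HOMER, ChIPseeker, R 4.2.1, Bowtie, Bowtie2, Trim Galore and FastQC, without saying what each was used for. Versions of the caller and the treatment of duplicates are not given in these sources. The deposited lists give for each peak its position and summit in bp, a fold enrichment as a linear ratio, a −log10 p-value, a −log10 q-value and a score. In the deposited lists the score is the whole part of 10 times the −log10 q-value in 99.99% of peaks, on average. Per the deposited values no peak had a −log10 q-value under 2, a q-value limit of 0.01. Read counts were not used here, so the depth is unknown and no counting interval is given.

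Peaks on the 7 main chromosomes were merged at 1 bp of overlap with Python 3.11.15, pandas 2.3.3 and numpy 2.4.6. Region folds average the highest peak of each library, and region centres average the summits. Percentiles are within a library. Gene spans came from RefSeq Release 6 plus ISO1 MT (17807 genes), the same assembly, and a region counts for a gene when it overlaps the span or its 10 kb flanks. The merging and window counts were tested on made-up peaks. For each gene the 5 strongest regions are named, with each region within 1 kb of an end, all regions of genes with 10 or fewer, and the 3 strongest regions missing from a library. The genes next to hth in number, and from each list those with most regions and with none, are named. Members, lists and rules were chosen with earlier results of these data known. No genome sequence was used here, so no sequence is shown, and a planned motif search was not run. Alternatives covered sharing, flanks, thresholds and each library left out.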

Additional observations from a re-analysis of the deposited data

How the results depend on the processing

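The number of consensus regions at hth (22), exd (1), tsh (5) and tio (2) was recomputed under 12 alternatives each, and 41 of these 48 counts stayed within 1.5 times the count reported. The fold of the strongest region was recomputed without each library, with the region chosen by percentile or by −log10 p-value, and with flanks of 1 kb except for exd, which has no region there. It moved by less than its SD in these 23 cases. A mean without 1 of its libraries can move little against the SD of the same libraries. Choosing by percentile or by −log10 p-value, or with flanks of 1 kb, returned the same fold. These cases therefore do not measure how stable the fold is. Leaving out a library, so that 2 peaks suffice, gave 23 to 24 regions at hth and the same counts as before at exd, tsh and tio. This setting loosens the rule, as does taking peaks of at least 2 libraries, so a count could hardly fall in either. Both are among the 48 counts, and neither can show how far a count rests on 1 library. Narrower flanks changed 2 genes: exd had 0 regions with flanks of 5 kb, 1 kb or none, and tsh had 2 with flanks of 1 kb or none, because their other regions lie farther out. With flanks of 5 kb, with the region centre inside the window or with a −log10 q-value of at least 5, tsh had 4. With only the peaks above each library's median fold, hth had 10 regions and tsh 2, while exd and tio kept their counts of 1 and 2.

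The density over the 4 windows together was 13.0 regions per 100 kb and has no spread between libraries, since a consensus region needs all of them. Over the windows of all protein-coding genes together it was 4.87, which was not recomputed in the other settings. Of the 30 regions 22 were at hth, while tio alone had a density of 7.54 and exd 4.16. The value of 13.0 is therefore not a trait of each gene. The density over the 4 windows was 14.7 with peaks of at least 2 libraries. It was 12.6 when peaks had to overlap by 50% of the shorter or when the centre had to lie in the window. It was 11.7 with a −log10 q-value of at least 5 and 6.49 with peaks above the median fold. It was 16.6 without flanks, 15.7 with 1 kb, 14.7 with 5 kb and 9.97 with 20 kb, and 13.4 to 13.9 with a library left out. The planned motif search was not run because no genome sequence was used. The depth of the libraries is unknown, so a gene without a peak in these lists is not shown to lack signal. With 1 group and no control library, none of these values separates binding of the tagged protein from accessible DNA.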

Other observations

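The 182 kb between tsh and tio, most of it outside the windows described above, held 22 merged regions, of which 15 had a peak in all 3 libraries. Replicates 1, 2 and 3 had 18, 19 and 18 peaks there. Of the 15, 3 lie in the tsh window and none in that of tio. The density was 8.23 regions per 100 kb, against 4.87 over the windows of all protein-coding genes together and a median of 3.86 among those windows. The interval has 21 annotated genes, 7 of them protein coding. The strongest region, at 21899271 to 21899706 on 2L, had folds of 16.9, 17.0 and 14.9 (16.2 ± 1.20; SD, n = 3) and lay 62.6 kb from tsh and 120 kb from tio in no annotated gene. Its values overlap those of the region at the end of tsh (17.4, 14.1 and 16.2). Another, at 21860661 to 21860927 inside lncRNA:CR44917, had 10.9, 11.4 and 10.8 (SD 0.336, n = 3). Whether these regions relate to tsh, to tio or to the genes between them was not tested.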
